A study of Mus musculus with 10 samples.

Results

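Genes that take up, store, export and sense iron were followed across 3 kinds of mouse cells: hepatocyte-like cells differentiated from embryonic stem cells (HLCs, labelled ES_HLC), hepatocytes of adult liver (Ad_Hep) and the undifferentiated stem cells (ESCs, labelled mESC). The members were fixed by a list of 10 names: Hamp, Trf, Tfrc, Tfr2, Hfe, Slc40a1, Slc11a2, Fth1, Cp and Steap4. A gene counted as measured only if a transcript cluster of the array carried its symbol and no other, which held for 9 of the 10, among 22180 genes measured in all. Trf, the gene of transferrin, shares its only cluster with the neighbouring symbol Srprb and has no value of its own. Each of the 9 measured members had 1 cluster, and no filter on low values was applied before the test.

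The series holds 3 arrays of HLCs, 3 of adult hepatocytes and 4 of ESCs. Every sample is labelled with a strain that carries Tg(CAG-luc, GFP)L2G85Chco on C.FVB, with the suffix FathJ, so all groups share a luciferase and green fluorescent protein transgene under the CAG promoter. No treatment is listed. The ages of the mice, the protocol and length of differentiation, and the number of stem cell lines are not stated in the labels. The sample titles name the replicates as biological (biorep), but not whether they came from separate animals or cultures. Each p-value is thus set only by how these arrays vary, in which technical variation may have a part. The series title concerns killing of stem-cell-derived hepatic cells through the natural killer receptor NKG2D, and iron handling is read here as one measure of how far these cells resemble hepatocytes.

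The liver is the body's main iron store and the source of hepcidin, the peptide hormone encoded by Hamp. Hepcidin binds the iron exporter ferroportin (Slc40a1) on macrophages, enterocytes and hepatocytes and causes its removal, which lowers iron in plasma. Hepatocytes set hepcidin output from iron bound to transferrin, through Hfe and the transferrin receptor Tfr2, and from bone morphogenetic protein (BMP) signals, through the co-receptor hemojuvelin (Hjv) and Smad proteins. Inflammation acts on Hamp through interleukin 6 and Stat3. Most dividing cells take up transferrin through the other receptor, Tfrc, whose messenger RNA is stabilised when iron is scarce.

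The promoter windows of 3 genes are shown because these genes had unlike values on the array of HLC replicate 3, as described further on. Each runs from 250 bases before to 50 bases after the transcription start, read 5′ to 3′ from RefSeq sequence of GRCm38.p6, and 7 of the 10 listed members have such a window. Capitals mark GGCGCC, the core of the BMP response element known in the Hamp promoter, and TTCNNNGAA, the letters that Stat proteins bind. Each motif equals its own reverse complement, so one search covers both strands, and the motifs do not overlap in these windows. The windows lie at chr7:30943980-30944279 (minus strand) for Hamp, chr7:30924132-30924431 (minus strand) for its paralog Hamp2, and chr5:7960222-7960521 (plus strand) for Steap4.
Hamp: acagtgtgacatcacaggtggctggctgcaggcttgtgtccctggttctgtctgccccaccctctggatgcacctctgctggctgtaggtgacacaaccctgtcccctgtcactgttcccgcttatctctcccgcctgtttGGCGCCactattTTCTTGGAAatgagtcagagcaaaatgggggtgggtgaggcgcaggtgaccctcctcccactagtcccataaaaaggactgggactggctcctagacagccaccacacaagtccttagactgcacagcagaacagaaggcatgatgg
Hamp2: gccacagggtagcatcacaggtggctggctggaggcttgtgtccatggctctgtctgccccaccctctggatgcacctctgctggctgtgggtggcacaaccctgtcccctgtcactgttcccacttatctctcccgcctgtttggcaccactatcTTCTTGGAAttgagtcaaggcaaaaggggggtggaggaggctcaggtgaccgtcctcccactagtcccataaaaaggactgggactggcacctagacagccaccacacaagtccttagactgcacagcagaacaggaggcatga
Steap4: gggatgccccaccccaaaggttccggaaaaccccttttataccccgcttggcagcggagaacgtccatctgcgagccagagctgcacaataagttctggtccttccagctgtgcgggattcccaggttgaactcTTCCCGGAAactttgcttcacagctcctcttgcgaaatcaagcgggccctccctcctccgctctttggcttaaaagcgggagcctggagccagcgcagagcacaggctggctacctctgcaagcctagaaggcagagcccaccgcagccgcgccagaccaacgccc
The Hamp window held both motifs, GGCGCC at position -109 and TTCNNNGAA at position -97 from the start site. The Hamp2 window held TTCNNNGAA alone, at position -94, although 276 of 297 aligned bases (92.9%) were identical to the Hamp window. Steap4 held TTCNNNGAA at position -116, and Tfrc held GGCGCC in one of its windows, at position -89. The windows of Cp, Fth1, Hfe and Tfr2 held neither motif. Slc40a1, also highest among HLC arrays in replicate 3, had no window. Whether these motifs have a part in the values of replicate 3 was not tested. Of all 32851 windows, 11.9% held GGCGCC, 8.30% held TTCNNNGAA and 0.645% held both. A match of letters is a description of the window and not a measured binding site.

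Levels are given as the deposited log2 array values, and a difference of 1 is a 2-fold change. A gene was called higher or lower when limma gave an adjusted p under 0.05 together with a log2 difference of at least 1. P-values came from 1 fit of the 10 arrays and were adjusted after Benjamini and Hochberg across the 22180 genes. The 3 comparisons share their arrays and are not independent of each other. The mean of 58.5% of all clusters lay under 5.5, a level taken here as dim, and a fold against a level below it is uncertain. In bulk RNA, fewer cells that express a gene and less RNA in each cell cannot be told apart.

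The labels were checked against marker lists. The mean level of 9 hepatocyte markers was 6.11 to 7.81 on the HLC arrays. It was 12.46 to 12.54 in adult hepatocytes, led by Alb, Cyp2e1 and Ttr, and 4.98 to 5.23 in ESCs. Of these 9 markers 4 were called higher in HLCs than in ESCs and 0 lower, where 8.61% of all genes were higher. Ttr was among the 4, whereas Alb and Cyp2e1 were not called and were dim in HLC replicates 1 and 2. The mean of 6 pluripotency markers was 4.69 to 5.55 in HLCs, 4.60 to 4.79 in adult hepatocytes and 8.99 to 9.03 in ESCs. The mean of 6 stellate cell and fibroblast markers, led by Acta2, Col1a1 and Postn, was 8.80 to 11.11 in HLCs, against 5.40 to 5.53 in adult hepatocytes and 4.80 to 5.11 in ESCs. The adult samples also carried markers of other liver cells. The mean of 10 Kupffer cell and macrophage markers was 4.48 to 4.60 in HLCs, 6.20 to 6.48 in adult hepatocytes and 4.32 to 4.49 in ESCs. Of these markers 2, 7 and 1 lay above 5.5 on average, with Vsig4 at 7.35, Csf1r at 7.24 and Clec4f at 7.05 in the adult samples. The mean of 6 sinusoidal endothelial markers was 5.69 to 6.08 in HLCs, 7.86 to 8.02 in adult hepatocytes and 5.39 to 5.73 in ESCs. Single markers of this list went opposite ways in HLCs against ESCs. Kdr (7.51 against 4.89) and Cdh5 (7.06 against 5.34) were called higher, and Pecam1 (6.44 against 9.52) lower. Among the HLC arrays Alb was at 10.80 in replicate 3, against 4.85 and 5.14 in the others. Differences are thus given with and without that array where it moves them. This was done for Hamp, Tfrc, Steap4, Slc40a1, Cp, Bmp6 and the cluster shared by Trf and Srprb.

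In HLCs 6 of the 9 members were lower than in adult hepatocytes (Hamp, Hfe, Tfr2, Steap4, Slc40a1 and Cp) and 0 were higher, where 9.12% of all genes were lower and 23.0% were called in either direction. The same 6 were higher in adult hepatocytes than in ESCs and Tfrc was lower, which makes 7 of 9 called. Of all genes 26.6% were called there, 11.0% higher and 15.6% lower. Of all genes in that comparison 2443 were higher and 3450 lower, or 2901 and 2673 after cyclic loess. Between HLCs and ESCs 4 of 9 were called, with Hamp, Slc40a1 and Cp higher and Tfrc lower. Of all genes 16.0% were called there, 8.61% higher and 7.35% lower. Where ESCs were the lower group the log2 differences of adult hepatocytes were 7.41 ± 0.19 for Cp, 6.66 ± 0.31 for Slc40a1, 5.69 ± 0.48 for Steap4, 5.45 ± 0.24 for Tfr2 and 3.07 ± 0.17 for Hfe (SE; limma, adjusted p = 1.12e-11, 1.91e-09, 6.76e-07, 1.17e-09 and 1.24e-08). Of these genes Cp, Slc40a1, Steap4 and Hfe averaged under 5.5 in ESCs, so the folds are uncertain. The median log2 difference of the 9 members was -3.39 for HLCs against adult hepatocytes, -0.12 for HLCs against ESCs and 5.45 for adult hepatocytes against stem cells. Over all genes these medians were -0.04, -0.01 and 0.05. Slc11a2 and Fth1 were called in none of the 3 comparisons, although both had an adjusted p under 0.05 with a difference below 1 for HLCs against adult hepatocytes, as did Slc11a2 for adult hepatocytes against ESCs.

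**Figure D1:**
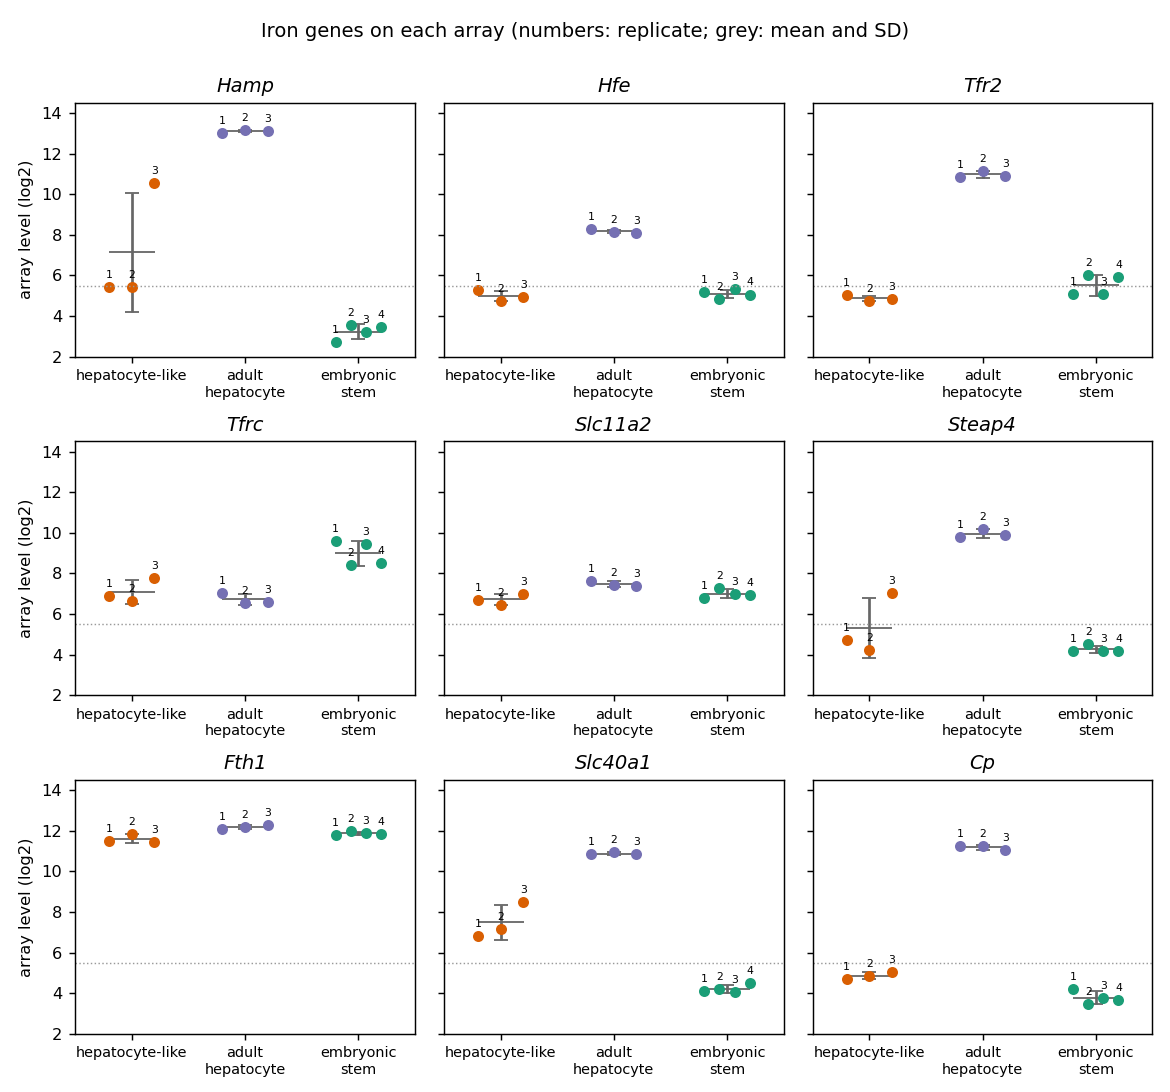
Levels of the 9 measured iron genes on each of the 10 arrays (vertical axis, log2 array level; numbers beside points, replicate; grey bar and whiskers, mean and SD; dotted line, 5.5). Hamp, Steap4 and Slc40a1 are highest among HLC arrays in replicate 3, and Hfe, Tfr2 and Cp lie below 5.5 on all 3 HLC arrays.

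Hamp, the hormone gene, had the widest range of the members within one kind of cell. It read 5.44, 5.44 and 10.54 in HLC replicates 1, 2 and 3, against 13.04, 13.17 and 13.14 in adult hepatocytes and 2.72, 3.54, 3.23 and 3.47 in ESCs. No HLC array overlapped either other kind, but replicates 1 and 2 lay just under the dim level of 5.5 and replicate 3 far above it. Hamp was lower in HLCs than in adult hepatocytes by a log2 difference of -5.97 ± 0.99 (SE; limma, adjusted p = 3.53e-04). It was higher than in ESCs by 3.90 ± 0.93 (adjusted p = 0.00622). Without HLC replicate 3 these differences were -7.67 (adjusted p = 2.40e-10) and 2.20 (adjusted p = 2.03e-05), so that array alone moves the second value by over 1.5 times. Adult hepatocytes exceeded ESCs by 9.87 ± 0.93 (adjusted p = 1.67e-06), with an SE that includes the spread of the HLC arrays through the shared fit.

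The paralog Hamp2, whose product shares most of its sequence with hepcidin, did not move with Hamp in replicate 3. Hamp2 read 2.61, 3.04 and 3.11 in HLCs, against 9.69, 8.96 and 9.70 in adult hepatocytes and 2.87, 3.48, 2.69 and 3.09 in ESCs. All HLC arrays thus lay within or below the range of the stem cells. Hamp2 was lower in HLCs than in the adult samples by -6.53 ± 0.25 (adjusted p = 4.46e-10), and against ESCs the difference was -0.11 ± 0.24 (adjusted p = 0.803, 95% interval -0.63 to 0.40). Near-identical copies can share signal on an array, and how far the clusters of Hamp and Hamp2 read each other was not tested.

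The iron sensors that set hepcidin output in hepatocytes were dim in HLCs. Hfe, the class I-like protein mutated in human haemochromatosis, read 5.27, 4.74 and 4.94 in HLCs, against 8.27, 8.13 and 8.10 in adult hepatocytes and 5.17, 4.84, 5.33 and 5.06 in ESCs. The hepatocyte-like and stem cell ranges overlapped and both were dim. The difference from adult hepatocytes was -3.18 ± 0.18 (adjusted p = 1.97e-08), and that from ESCs was -0.12 ± 0.17 (adjusted p = 0.696, 95% interval -0.49 to 0.26).

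Tfr2, the transferrin receptor of hepatocytes and erythroid precursors, read 5.01, 4.74 and 4.86 in HLCs. It read 10.84, 11.16 and 10.92 in adult hepatocytes and 5.07, 6.0, 5.09 and 5.94 in ESCs. Each HLC array was below each ESC array, and the 4 stem cell values fell near 5.1 in replicates 1 and 3 and near 6 in replicates 2 and 4. Tfr2 was lower in HLCs than in adult hepatocytes by -6.10 ± 0.26 (adjusted p = 8.83e-10). Against ESCs the difference of -0.65 ± 0.24 did not pass (adjusted p = 0.0610, 95% interval -1.18 to -0.13). Of 4 erythroid markers measured, 0 were called in any comparison, where 16.0% to 26.6% of all genes were called.

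Hjv, the BMP co-receptor, and Tmprss6, the liver protease that cleaves it, followed the sensors. Hjv read 5.25, 5.16 and 4.55 in HLCs, against 8.89, 8.95 and 9.09 in adult hepatocytes and 5.09 to 5.54 in ESCs. Tmprss6 read 4.87, 4.77 and 4.57 in HLCs, against 10.31, 10.79 and 10.61 in adult hepatocytes and 4.64 to 4.92 in ESCs. Both were lower in HLCs than in adult hepatocytes, Hjv by -3.99 ± 0.20 (adjusted p = 5.92e-09) and Tmprss6 by -5.83 ± 0.17 (adjusted p = 4.72e-11). Neither was called against ESCs (adjusted p = 0.222 and 0.899). Both were dim on all 3 HLC arrays, replicate 3 included.

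Of the BMP arm, only Id1, Smad6 and Bmpr2 were called higher in HLCs than in both other kinds. Of 20 measured genes of iron sensing and hepcidin control, 9 were higher and 1 lower than in ESCs, where 8.61% of all genes were higher and 7.35% lower. Against adult hepatocytes 4 were higher and 4 lower, where 13.9% of all genes were higher and 9.12% lower. The ligand Bmp6, which induces hepcidin in the liver, was not called against adult hepatocytes (-0.01, adjusted p = 0.986) or against ESCs (0.92, adjusted p = 0.0839). Among the HLC arrays Bmp6 was lowest in replicate 3, and the outcome against ESCs depended on that array. Without HLC replicate 3 Bmp6 was called higher than in ESCs, at 1.40 (limma, adjusted p = 0.00509). With weighted arrays it was called as well, at 1.07 (adjusted p = 0.0280). Id1, a transcriptional target of Smad signalling, was higher by 3.01 ± 0.22 than in stem cells (adjusted p = 6.10e-07) and by 1.14 ± 0.23 than in adult hepatocytes (adjusted p = 0.00171). Smad6, an inhibitory Smad that is itself induced by BMP signals, was higher by 2.47 ± 0.19 and 2.19 ± 0.20 in the same comparisons (adjusted p = 1.11e-06 and 2.24e-06). Bmpr2, a type II BMP receptor, was higher by 3.00 ± 0.20 and 1.36 ± 0.22 (adjusted p = 3.62e-07 and 2.57e-04). Furin, a convertase that processes prohepcidin and hemojuvelin, was higher than in stem cells by 2.34 ± 0.35 (adjusted p = 2.46e-04). Neo1, a membrane receptor that binds hemojuvelin, was lower than in stem cells by -1.33 ± 0.17 (adjusted p = 8.87e-05). After cyclic loess the differences of Id1 and Bmpr2 from adult hepatocytes were 0.92 and 0.90 and fell short of the threshold of 1, as did Id1 without adult hepatocyte replicate 3 (0.99). These BMP genes act in many processes besides iron, and stellate cell and fibroblast markers, 6 of 6 higher in HLCs than in either other kind, stood beside them; the part of such cells was not tested.

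**Figure D2:**
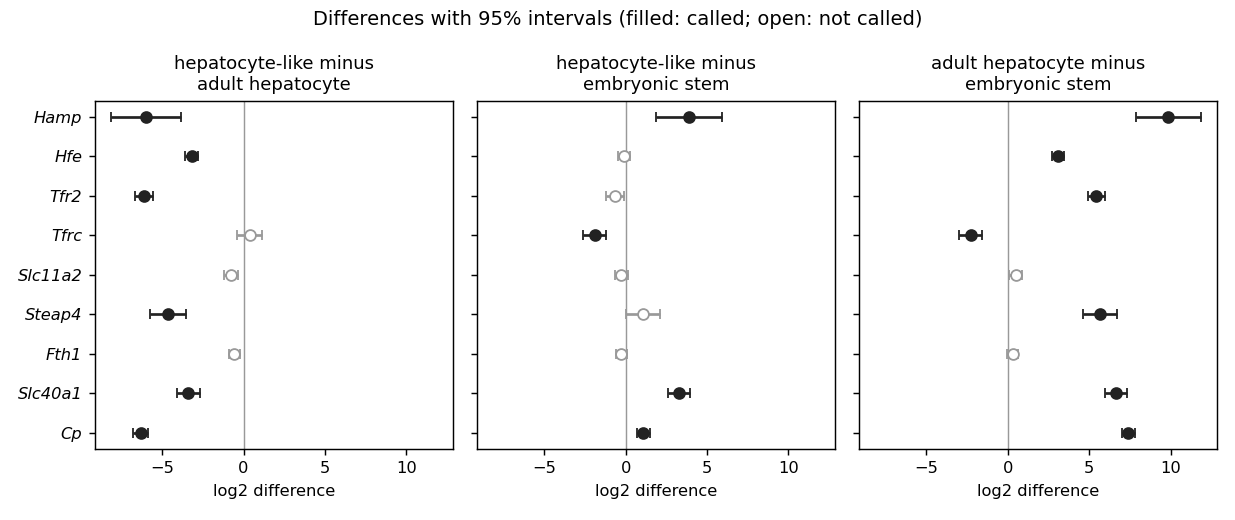
Log2 differences of the 9 iron genes with 95% intervals from the fit (horizontal axis) in the 3 comparisons, filled where called and open where not called. Against adult hepatocytes 6 genes are lower in HLCs, and against ESCs the 4 called genes are Hamp, Slc40a1, Cp and Tfrc.

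Among uptake genes Tfrc, the receptor by which most dividing cells import transferrin, was the member that was lower in both hepatic kinds than in stem cells. It read 6.88, 6.63 and 7.76 in HLCs, against 7.02, 6.52 and 6.60 in adult hepatocytes and 9.60, 8.43, 9.43 and 8.50 in ESCs. The ranges of both hepatic kinds overlapped and lay below all ESC arrays, among which replicates 1 and 3 were higher than 2 and 4. Tfrc fell by 1.90 ± 0.33 in HLCs relative to ESCs (adjusted p = 7.67e-04), a 3.73-fold difference. In adult hepatocytes it fell by 2.28 ± 0.33 relative to ESCs (adjusted p = 8.32e-05), a 4.85-fold difference. Between HLCs and adult hepatocytes the difference was 0.38 ± 0.35 (adjusted p = 0.453, 95% interval -0.39 to 1.14). Without HLC replicate 3 it was 0.04 (adjusted p = 0.947), and that from ESCs was -2.24 (adjusted p = 3.28e-04).

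Slc11a2, the ferrous iron transporter DMT1 that moves iron out of endosomes, was nearly even. It read 6.71, 6.45 and 7.0 in HLCs, against 7.64, 7.43 and 7.38 in adult hepatocytes and 6.77, 7.30, 6.97 and 6.94 in ESCs. The HLC arrays lay below the adult ones and overlapped those of the stem cells. The difference from adult hepatocytes was -0.76 ± 0.19 (adjusted p = 0.00712), that from ESCs was -0.27 ± 0.18 (adjusted p = 0.317, 95% interval -0.67 to 0.12), and adult hepatocytes differed from ESCs by 0.49 ± 0.18 (adjusted p = 0.0457).

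Steap4, a ferrireductase that is also induced in inflammation, resembled Hamp in replicate 3. It read 4.70, 4.25 and 7.02 in HLCs, against 9.80, 10.19 and 9.89 in adult hepatocytes and 4.19, 4.53, 4.20 and 4.16 in ESCs. Replicates 1 and 2 were dim and replicate 2 overlapped the ESC arrays, whereas replicate 3 was above all of them. Steap4 was lower in HLCs than in adult hepatocytes by -4.64 ± 0.52 (adjusted p = 1.16e-05), or by -5.49 without replicate 3 (adjusted p = 1.59e-09). The difference from ESCs was 1.05 ± 0.48 and was not called (adjusted p = 0.134). It was 0.20 without HLC replicate 3 (adjusted p = 0.520), and it passed without replicate 2, at 1.59 (adjusted p = 0.0245), in a range of adjusted p from 0.0245 to 0.520 over all alternatives.

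The Steap family reductases Steap1 and Steap2 were called higher in HLCs than in both other kinds. Metal importers of the Slc39 family differed from each other. Of 10 measured genes of uptake and reduction, 3 were higher and 0 lower than in ESCs (8.61% and 7.35% of all genes), and 2 were higher and 2 lower than in adult hepatocytes (13.9% and 9.12% of all genes). Steap1 was higher in HLCs by 1.66 ± 0.18 than in adult hepatocytes (adjusted p = 7.34e-06) and by 1.33 ± 0.16 than in ESCs (adjusted p = 5.97e-05). Steap2 was higher by 2.48 ± 0.24 than in ESCs (adjusted p = 7.61e-06) and by 1.06 ± 0.26 than in adult hepatocytes (adjusted p = 0.00566). The second Steap2 call was lost after cyclic loess (0.93) and without HLC replicate 2 (0.79), among other settings. Steap1 was dim in both other kinds and Steap2 in ESCs, so those folds are uncertain. Slc39a8, a metal importer known as ZIP8, read 8.31, 8.69 and 8.68 in HLCs, against 8.87, 8.60 and 8.66 in adult hepatocytes and 4.64, 4.95, 5.45 and 5.12 in ESCs. Its ranges in both hepatic kinds overlapped and differed by -0.15 ± 0.21 (adjusted p = 0.630, 95% interval -0.61 to 0.31), and it was higher than in stem cells by 3.52 ± 0.20 in HLCs (adjusted p = 8.17e-08) and 3.67 ± 0.20 in adult hepatocytes (adjusted p = 7.82e-09). The related hepatic importer Slc39a14 (ZIP14), which takes up iron not bound to transferrin, was lower in HLCs than in adult hepatocytes by -2.59 ± 0.33 (adjusted p = 3.68e-05).

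Fth1, the heavy chain of the storage protein ferritin, was bright in every sample. It read 11.51, 11.85 and 11.45 in HLCs, against 12.09, 12.16 and 12.28 in adult hepatocytes and 11.79, 11.97, 11.88 and 11.84 in ESCs. The HLC arrays lay below the adult ones, by -0.57 ± 0.16 (adjusted p = 0.0134), and overlapped those of the ESCs, from which they differed by -0.26 ± 0.15 (adjusted p = 0.237, 95% interval -0.59 to 0.06). The difference from adult hepatocytes was called after cyclic loess, at -1.18 (adjusted p = 1.12e-04). Ferritin is largely set at translation by iron regulatory proteins, which arrays do not measure. The light chain Ftl1 was found only on clusters shared with its pseudogenes and has no value of its own here. In a limma fit over all 41345 clusters these shared clusters did not go the same way. The brightest differed in HLCs from adult hepatocytes by 0.13 and 0.18 (adjusted p = 0.610 and 0.557). Less bright ones were called lower, by -1.96, -1.31 and -1.54 (adjusted p = 0.0278, 0.0304 and 0.0178). None can be assigned to Ftl1 alone. Of the other 4 measured genes of storage and its turnover, 0 were called in any comparison. Of all genes 23.0% were called for HLCs against adult hepatocytes, 16.0% for HLCs against ESCs and 26.6% for adult hepatocytes against ESCs. In the last comparison Pcbp1 (-0.98, adjusted p = 7.12e-04) and Pcbp2 (-0.85, adjusted p = 4.91e-04) fell short only of the difference of 1. Pcbp1 was called there with arrays centred on their medians (-1.08, adjusted p = 4.20e-04).

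Slc40a1, the exporter that hepcidin removes, was the member with an intermediate level, above 5.5, on all 3 HLC arrays. It read 6.80, 7.17 and 8.48 in HLCs, against 10.84, 10.94 and 10.84 in adult hepatocytes and 4.10, 4.21, 4.05 and 4.50 in ESCs. The 3 kinds did not overlap, and each HLC array was above 5.5 while each ESC array was below it. Slc40a1 was lower in HLCs than in the adult samples by -3.39 ± 0.33 (adjusted p = 3.43e-06) and higher than in ESCs by 3.26 ± 0.31 (adjusted p = 6.37e-06). Without replicate 3 these values were -3.89 (adjusted p = 1.57e-08) and 2.76 (adjusted p = 8.04e-07). Macrophages also express this gene, and of the 10 Kupffer cell and macrophage markers 9 were higher in adult hepatocytes than in either other kind. Their part in the adult level was not tested. In HLCs the defining Kupffer markers Clec4f and Vsig4 were dim, at 4.68 to 4.89 and 3.15 to 3.81, against 4.85 to 5.02 and 3.43 to 3.90 in ESCs. Csf1r, a receptor of macrophages in general, was the 1 marker of the 10 called higher in HLCs than in ESCs, at 5.43, 5.87 and 6.37 in replicates 1, 2 and 3, against 4.14 to 5.25 in ESCs. Its part in the level of Slc40a1, which was likewise highest in replicate 3, was not tested.

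Cp, ceruloplasmin, the plasma ferroxidase that assists ferroportin, read 4.68, 4.84 and 5.05 in HLCs. It read 11.24, 11.27 and 11.05 in adult hepatocytes and 4.21, 3.46, 3.74 and 3.67 in ESCs. The 3 kinds did not overlap, but all hepatocyte-like and ESC arrays were dim. Cp was lower in HLCs than in adult hepatocytes by -6.33 ± 0.20 (adjusted p = 7.36e-11). It was called higher than in ESCs by 1.08 ± 0.19 (adjusted p = 7.28e-04), a call lost without HLC replicate 3 (0.99) and without ESC replicate 2 (0.98). Heph, the membrane-bound homolog of ceruloplasmin, was higher in HLCs than in adult hepatocytes by 1.25 ± 0.25 (adjusted p = 0.00132). Its mean was 6.20 in HLCs, against dim means of 4.95 in adult hepatocytes and 5.19 in ESCs, so the folds are uncertain. Against ESCs Heph was called higher by 1.01 ± 0.23 (adjusted p = 0.00468), a call lost without HLC replicate 3 (0.92) and in other settings.

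The cluster shared by Trf and Srprb read 5.61, 5.17 and 7.43 in HLCs, against 12.90, 12.83 and 12.87 in adult hepatocytes and 6.74, 6.52, 7.14 and 6.46 in ESCs. It cannot be assigned to transferrin alone. In a limma fit over all 41345 clusters it was lower in HLCs than in adult hepatocytes by -6.80 ± 0.45, and the difference from ESCs was -0.65 ± 0.43 (adjusted p = 0.363). Without HLC replicate 3 these differences were -7.48 (adjusted p = 4.97e-09) and -1.33 (adjusted p = 0.00211), so that the cluster then passed as lower than in ESCs. Replicates 1 and 2 lay below all ESC arrays and replicate 3 above them.

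Among scavengers of haem and haemoglobin, the plasma proteins were lower and haem oxygenase higher in HLCs than in the adult samples. Hpx (hemopexin, which binds haem) and Hp (haptoglobin, which binds haemoglobin) were lower in HLCs than in the adult samples by -6.74 ± 0.18 (adjusted p = 2.84e-11) and -6.74 ± 0.27 (adjusted p = 6.29e-10). Hmox1, the haem oxygenase that frees iron from haem, read 8.34, 8.68 and 9.51 in HLCs, against 7.36, 7.09 and 7.24 in adult hepatocytes and 8.83, 9.27, 8.95 and 9.19 in ESCs. Hmox1 was thus higher in HLCs than in the adult samples by 1.61 ± 0.26 (adjusted p = 2.75e-04), and it differed from ESCs by -0.22 ± 0.24 (adjusted p = 0.588, 95% interval -0.74 to 0.31). Of 6 measured genes of mitochondrial iron use, 3 were lower than in adult hepatocytes (9.12% of all genes) and 0 were called against ESCs (16.0% of all genes).

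Over the whole wider list of 58 iron genes, of which 54 were measured, 8 were higher and 14 lower in HLCs than in adult hepatocytes (40.7% called, against 23.0% of all genes). Against ESCs 15 were higher and 1 lower in HLCs (29.6%, against 16.0% of all genes). In adult hepatocytes 21 were higher and 2 lower than in ESCs (42.6%, against 26.6%), led upward by Hpx (7.55), Hp (6.94), Hamp2 (6.42), Tmprss6 (5.79), Slc39a8 (3.67) and Hjv (3.64), while Hmox1 and Neo1 fell by 1.83 and 1.98. The median differences of the list were -0.04, 0.35 and 0.41 in the 3 comparisons, beside -0.04, -0.01 and 0.05 over all genes.

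**Figure D3:**
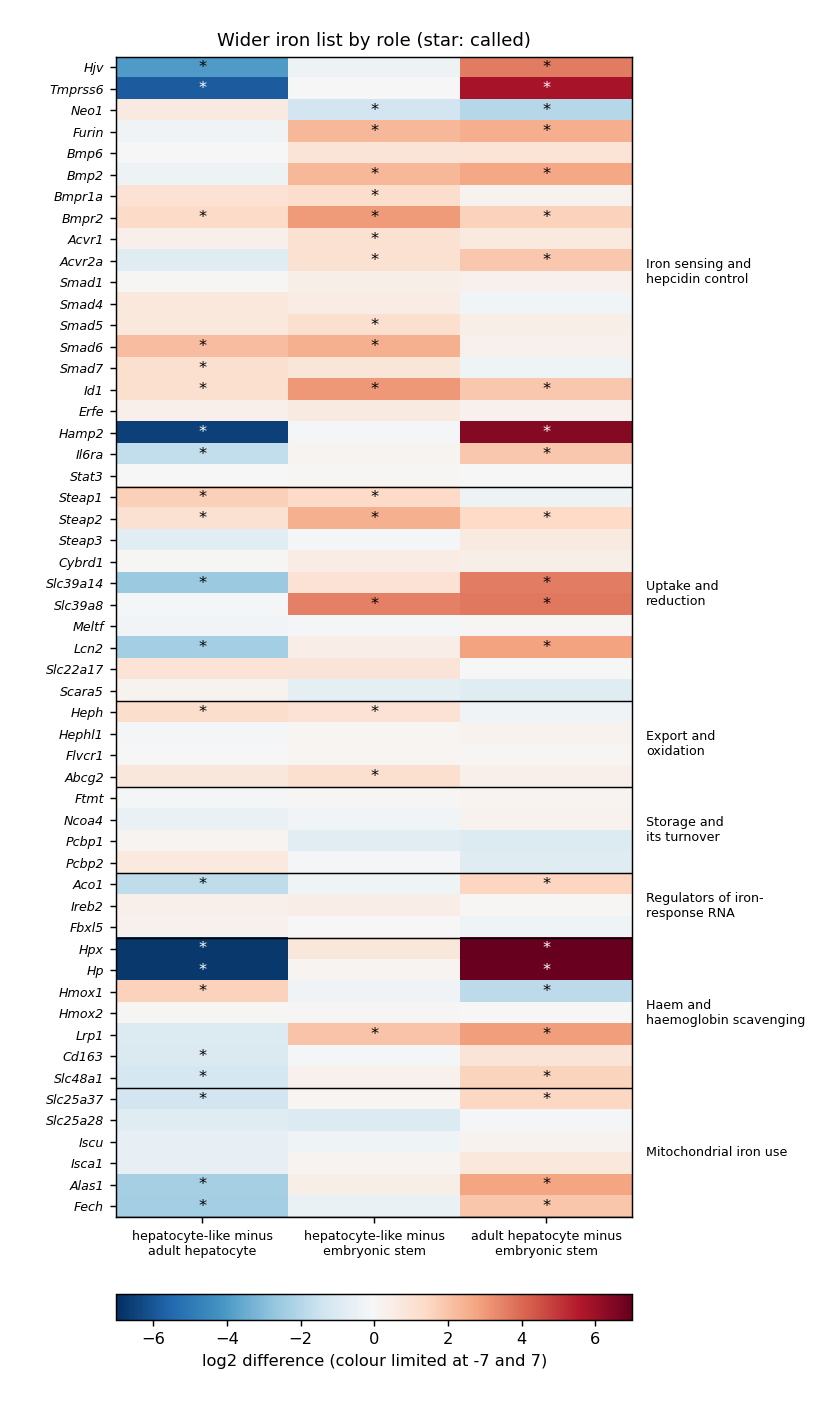
Log2 differences of the 54 measured genes of the wider iron list (rows, grouped by role) in the 3 comparisons (columns), with red for higher, blue for lower and a star where called. The plasma scavengers Hpx and Hp, and Hjv, Tmprss6 and Hamp2 of iron sensing and hepcidin control, are blue against adult hepatocytes and pale against ESCs.

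The levels of iron genes in HLC replicate 3 were set against their adult levels, on linear values within each gene's own cluster. In replicate 3 Hamp stood at 16.8% of the adult mean, Slc40a1 at 19.0% and Steap4 at 12.9%, against 0.489%, 6.79% and 2.24% for the mean of replicates 1 and 2. Hp stood at 1.64% and Hpx at 1.19% of adult in replicate 3, against 0.710% and 0.827% in replicates 1 and 2. Hamp, Steap4 and Hp read under 5.5 in replicates 1 and 2, so their shares there, and the contrast with replicate 3, depend on the dim level. Cp, Tfr2, Hamp2, Tmprss6, Hjv and Hfe read under 5.5 on all HLC arrays, so that their shares of adult, 1.20% to 10.6% in replicate 3, depend on the dim level and on how bright the adult samples are, and are not read as amounts. The genes of this paragraph were chosen with their values known, and the shares are descriptions. The hepatocyte markers were spread as widely, from 1.27% of adult for Cyp2e1 and 1.51% for Cps1 to 9.22% for Apob and 16.1% for Alb. Ttr, Apoa1, Fgb and Hnf4a were lower in replicate 3 than in the mean of replicates 1 and 2. Some markers of other cells moved on that array too. Of the pluripotency markers Nanog read 7.12 in replicate 3, against 5.08 and 5.09 in replicates 1 and 2 and 12.04 to 12.35 in ESCs. Tdgf1 read 6.50, against 3.90 and 3.83 and 10.50 to 11.54. The rest of that list did not move alike. Replicate 3 differed from the mean of replicates 1 and 2 by 0.44 for Zfp42, 0.21 for Dppa5a and 0.12 for Pou5f1. Esrrb was lower there, by -0.50. The mean of the 6 stellate cell and fibroblast markers was 8.80 in replicate 3, against 11.11 and 10.05 in replicates 1 and 2, with all 6 lower there than the mean of the other 2 arrays. The part of these cells in the levels of Hamp, Slc40a1 and Steap4 was not tested.

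**Figure D4:**
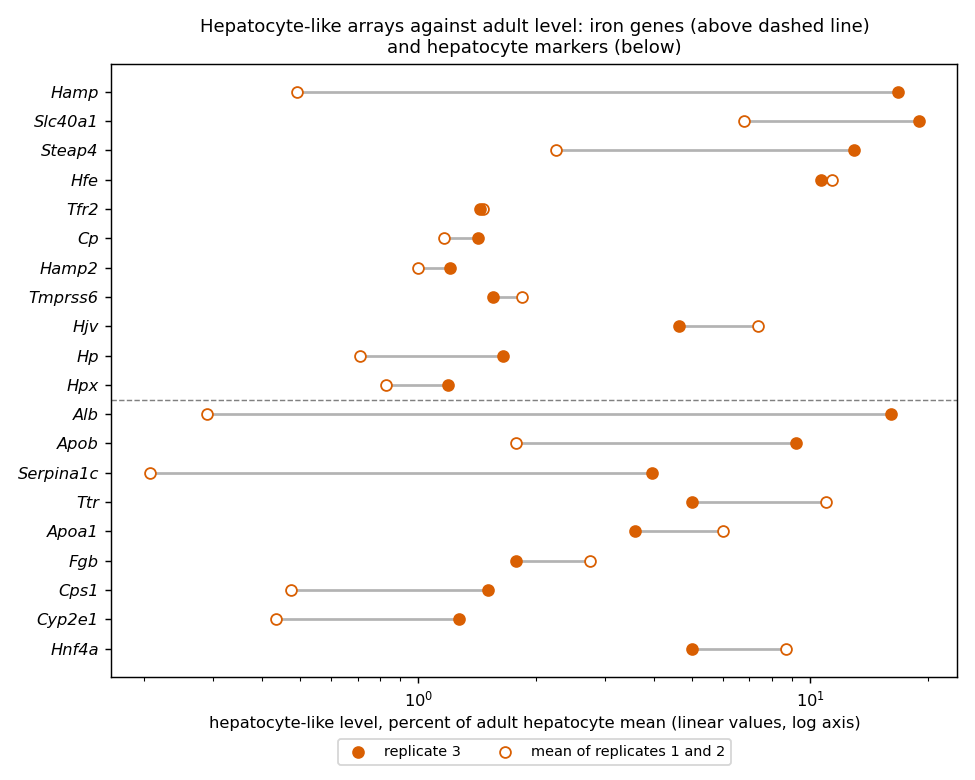
Level in HLCs as a percent of the adult hepatocyte mean (horizontal log axis, linear values) for HLC replicate 3 (filled) and the mean of replicates 1 and 2 (open), for 11 iron genes above the dashed line and 9 hepatocyte markers below it. Hamp, Slc40a1 and Steap4 lie between 12.9% and 19.0% in replicate 3, and the shares of Cp, Tfr2, Hamp2, Tmprss6, Hjv and Hfe come from levels under 5.5. So do the open points of Hamp, Steap4, Hp, Alb, Serpina1c, Cps1 and Cyp2e1.

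The genes most like each member were named by Pearson's r over the 10 arrays, among 8009 genes with an SD of at least 0.5, without clone names, predicted models, small RNAs and pseudogenes. These values are descriptions, since the arrays fall into 3 kinds and any gene that separates them gives a high r. Hamp was most like Apob, the apolipoprotein of very low density lipoprotein (r = 0.989), Nat2 and Efna1. Steap4 was most like the fatty acid oxidation enzyme Acadl (r = 0.992), the antiprotease Serpina1c and Gda. Slc40a1 was most like Ndfip1 (r = 0.997), Marchf8 and Elk4. Cp was most like Mia2 (r = 0.999), Gjb2 and Ly6g2, Tfr2 was most like Csad (r = 0.998), Acy3 and Pcx, and Hfe was most like Abca8a (r = 0.996), Hc and Mfsd4b1. Tfrc was most like Rnf138 (r = 0.992), Pias2 and Orc5, a subunit of the replication origin complex. Among the members themselves r was 0.97 between Hamp and Steap4, 0.98 between Hamp and Slc40a1, 0.98 between Tfr2 and Hfe, and -0.83 between Tfrc and Slc40a1.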

How the data were processed

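Total RNA was labelled with biotin and hybridised to Affymetrix arrays, per the labels' protocols. The authors deposited log2 values for 41345 transcript clusters on 10 arrays, and these were not normalised further. Per the submitters' processing notes, the tools were Transcriptome Analysis Console, oligo 1.38.0 under R 3.3.1, and RMA. The log2 scale was read from the range of 1.27 to 13.58, and array medians were 4.91 to 5.07. RMA compresses dim values, and scanner files were not used here, so no probe was tested against background. The genome build is not given in the sources used here.

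In the platform annotation 23521 clusters had 1 symbol, 1814 had several and 16010 had none. Of the clusters with 1 symbol 23328 matched RefSeq by identifier, with 0 changed symbols. The cluster with the highest mean over the 10 arrays stood for each of 22180 genes. Groups came from the sample titles. Tests of both directions were made in R 4.3.3 with limma 3.58.1, whose lmFit and eBayes had group means only, 7 residual degrees of freedom and a prior of 5.34. It was tested on simulated data.

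The members, the wider list and the markers were chosen with earlier results of these data known. Named genes are the members, up to 6 called genes of the wider list each way per comparison, the 3 genes most like each called member, and up to 3 markers per cell type. Bmp6, the named endothelial markers and the genes and markers described for replicate 3 were chosen after their values were seen. Replicate numbers gave no sign of pairing. Deviations from group means correlated at -0.19 to 0.14 for same-numbered arrays and at -0.25 to 0.23 for others. Deviations within a group depend on each other, so these values cannot show that the samples were unpaired. Alternatives were 3 scalings, a filter on dim genes, averaging of clusters, 2 variance or weight models, the 2 groups alone, a replicate block, each array left out and 2 other thresholds. The number of arrays limits the precision. Figures used Python 3.11.15 and matplotlib 3.10.9.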

Additional observations from a re-analysis of the deposited data

Results flagged for a closer look

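Steap4 in embryonic stem cells had 1 array apart from the others, replicate 2 at 4.53 against 4.19, 4.20 and 4.16. The gap to its nearest neighbour made up 0.897 of the range of the 4 arrays. All 4 values are dim, and about 1 in 20 such groups is picked out by chance.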

How the results depend on the processing

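Over 21 alternatives, 560 values of single members kept their side of the threshold, 2 calls were lost, 5 were gained and 0 reversed. Differences that were not called could change sign, as for Hfe in hepatocyte-like against embryonic stem cells (-0.12, with a highest value of 0.00155). The calls that changed were those of Cp and Steap4 (hepatocyte-like against embryonic stem cells) and of Fth1 and Slc11a2, as the report gives for Cp, Steap4 and Fth1. With no minimum difference Slc11a2 and Fth1 counted as lower in hepatocyte-like than in adult cells, and Slc11a2 as higher in adult hepatocytes than in stem cells, by the construction of that threshold. Counts of called members stayed within 1.5 times: 6 to 8 for hepatocyte-like against adult cells, 3 to 5 for hepatocyte-like against stem cells and 7 to 8 for adult against stem cells. Over all genes that threshold gave 8003, 6390 and 9205 calls in place of 5106, 3540 and 5893. The replicate block left 6, 4 and 7 members called, so it changed no call of a member. Signal over background was not measured, and levels under 5.5 cannot be ordered with confidence, which touches Hamp in replicates 1 and 2, and most values of Cp, Hfe, Tfr2, Steap4, Hjv, Tmprss6 and Hamp2 outside adult hepatocytes.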
